A study of Mus musculus with 20 samples.

Results

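Smooth muscle contractile genes are described here in mouse hind-limb muscle. The members are 8 genes, Tagln, Acta2, Myh11, Cnn1, Smtn, Des, Mylk and Actg2, and they were found by gene name among the non-control probes of the array. They hold 15 of the 41174 non-control probes, and 14 of the 15 passed the filter on dim probes that 37381 probes passed in all. RNA came from the soleus, which is slow and holds posture, and the gastrocnemius, which is mixed and mostly fast, of 10 male ICR mice aged 6 months. All 10 mice were housed singly for a 3-day acclimation and carried no stated allele. The controls moved freely for 24 h. The HLS (hind-limb suspension) mice spent 24 h hung by the tail at a head-down tilt of 45°, so that the hind limbs bore no weight. Each combination of muscle and condition had 5 one-colour arrays, 1 per mouse, and both muscles of a mouse were arrayed. Levels are log2 of the probe's intensity against the 75th percentile of its array, so that 0 is the level of that percentile.

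Smooth muscle cells in a limb muscle lie in the walls of arteries, arterioles and veins. Their contractile apparatus is built from actin and myosin isoforms of their own, with calponin, transgelin and smoothelin bound to the thin filaments, and it is switched on when myosin light chain kinase phosphorylates the regulatory light chain. Many of these genes are transcribed through serum response factor (SRF), which binds CArG boxes, together with myocardin or the myocardin-related factors that actin assembly releases to the nucleus. Not every member is particular to smooth muscle in this tissue. Desmin is the main intermediate filament of skeletal fibres as well, and Mylk and Smtn are transcribed in other cells. Whether the other members come only from smooth muscle cells here was not tested. In bulk RNA, fewer cells of a type and less RNA per cell cannot be told apart, and this holds for every change given here.

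Promoters from RefSeq (build GRCm38.p6) were matched for 5 of the 8 members, as windows of 300 bases that run from 250 before to 50 after the transcript start. They are shown for Acta2, for Cnn1 and for Myl9, the smooth muscle regulatory light chain. Acta2 probe A_52_P420504 and Cnn1 varied together in their deviations from the group means. In such deviations Myl9 was, outside the members, the gene closest to the mean of Tagln, Acta2, Myh11 and Cnn1. Capitals mark CArG-like stretches, which are CC and GG around 6 letters of which at most 1 is G or C. That pattern reads the same on both strands, and overlapping matches were allowed.
Acta2, chr19:34255324-34255623, minus strand: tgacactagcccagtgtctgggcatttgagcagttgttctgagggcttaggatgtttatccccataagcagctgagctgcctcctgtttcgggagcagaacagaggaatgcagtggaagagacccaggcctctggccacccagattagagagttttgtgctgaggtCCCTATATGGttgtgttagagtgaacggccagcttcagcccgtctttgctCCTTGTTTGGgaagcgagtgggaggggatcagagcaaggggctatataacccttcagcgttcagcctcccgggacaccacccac
Myl9, chr2:156775214-156775513, plus strand: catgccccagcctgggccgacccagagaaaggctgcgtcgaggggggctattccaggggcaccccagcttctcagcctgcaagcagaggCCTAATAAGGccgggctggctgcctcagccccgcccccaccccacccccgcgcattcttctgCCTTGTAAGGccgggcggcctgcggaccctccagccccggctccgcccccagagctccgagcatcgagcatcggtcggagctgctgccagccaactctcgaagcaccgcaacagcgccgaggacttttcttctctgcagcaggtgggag
Cnn1, chr9:22099003-22099302, plus strand: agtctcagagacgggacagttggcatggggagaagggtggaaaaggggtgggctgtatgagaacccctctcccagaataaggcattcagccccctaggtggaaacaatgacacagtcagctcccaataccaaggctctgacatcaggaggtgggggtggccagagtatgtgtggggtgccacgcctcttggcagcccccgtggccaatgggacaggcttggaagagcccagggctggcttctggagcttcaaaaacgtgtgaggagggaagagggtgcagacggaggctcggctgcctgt

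The Acta2 window held 2 such stretches, which began 84 and 34 bases before the start. The Myl9 window also held 2, at 161 and 99 bases before the start, and the first of them had no G or C in its core. Of all 32851 promoter windows of this length, 9.98% held at least 1 such stretch, 0.822% held 2 or more, and 1.63% held 1 with a core of only A and T. The windows of Cnn1, Smtn, Des and Mylk held none, which says only that these letters are not in those windows.

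Replicate arrays of a group correlated at 0.968 to 0.986 over the probes kept. An array had 80.5% to 93.0% of its probes well above background, and precision is limited by how many arrays there are. The spike-in probes (E1A), whose RNA was added in 1 volume to each labelling, stood at 1.49 ± 0.04 in soleus control, 1.75 ± 0.20 in soleus HLS, 2.55 ± 0.08 in gastrocnemius control and 1.77 ± 0.13 in gastrocnemius HLS (SD, n = 5). Scaling to these probes instead moves the change of all probes by a median of -0.26 in soleus and 0.78 in gastrocnemius, so every change here is relative to the array's own 75th percentile. The arrays lay on 6 slides scanned on 3 days. Slide 5 held 1 soleus control and 3 soleus HLS arrays, slide 2 held 3 gastrocnemius controls and 1 HLS array, and each other slide held 1 group. Soleus HLS 1 stood apart in fibre markers: its mean over 7 slow fibre markers was 5.81, against 7.47 to 7.97 on the other soleus HLS arrays.

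The tissue labels can be set against fibre markers in the controls. Over all probes 11.1% were called higher in soleus and 22% lower. All 7 slow fibre markers were higher in soleus than in gastrocnemius, with a median difference of 2.87. Of 8 fast fibre markers 5 were lower in soleus and 1 was higher, Tnni2, the fast troponin I (0.35 ± 0.10, adjusted p = 0.0108, limma). With a scan-day term 5 of the 7 slow markers and 0 of the 8 fast markers passed (limma), beside 2026 of all 37381 probes. The member probes were well above background on all 20 arrays, with the exception of Acta2 probe A_52_P644232. That probe passed on 3 gastrocnemius control arrays and on no other array, and it was not tested.

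The first comparison asks how 24 h without weight bearing alters these genes in soleus. Both probes of Tagln, the thin-filament protein transgelin, and 2 of the 4 tested probes of Acta2, smooth muscle alpha-actin, fell, and were 2.01 to 2.45 times as high in control as in HLS. Cnn1, calponin, showed as large a difference with more spread and did not pass the test. Myh11, the smooth muscle myosin heavy chain, was 0.34 lower and did not pass. Smtn, Des and Actg2 gave estimates between 0.01 and 0.29, none of which passed.

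**Figure D1:**
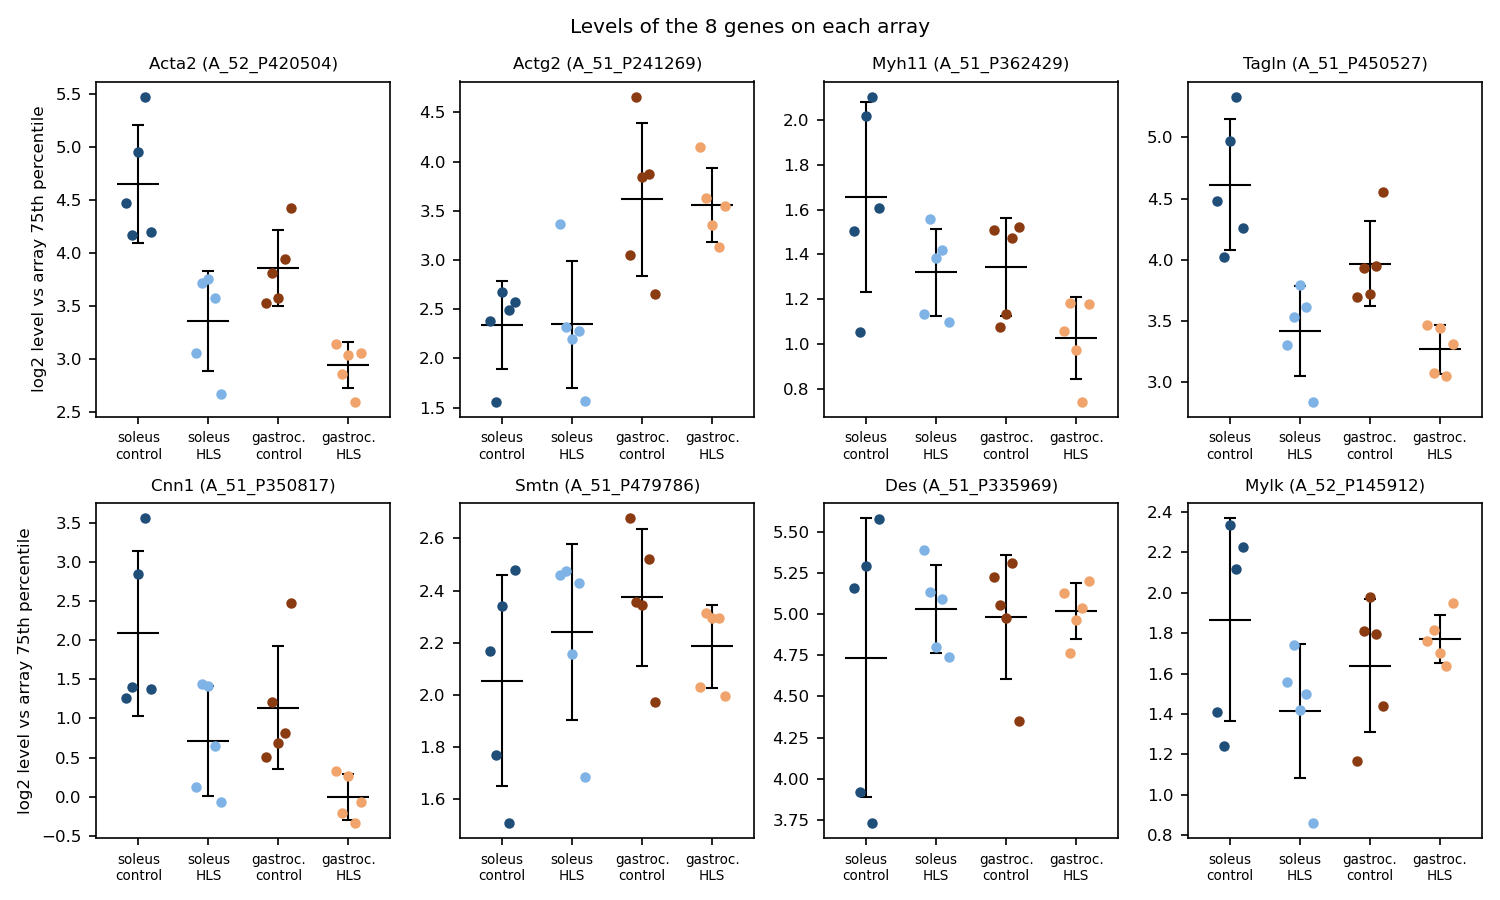
Each panel shows 1 member gene by the probe that has the most spots among those named by a RefSeq accession. Points are arrays (y axis: log2 level against the array's 75th percentile, with its own range in each panel), and bars are the mean ± SD of 5 arrays. For Acta2 and Tagln all 5 HLS arrays lie below all 5 controls in each muscle, and Actg2 is lower in soleus than in gastrocnemius.

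Among the actins, Acta2 probe A_52_P420504, which is spotted 10 times on each array, stood at 4.47, 4.17, 4.95, 5.47 and 4.19 on the soleus control arrays 1 to 5. On the soleus HLS arrays it stood at 3.06, 3.72, 3.75, 3.58 and 2.67. All HLS arrays lay below all controls, with control 4 highest and HLS 5 lowest. The change was -1.29 ± 0.25 (SE, adjusted p = 0.00258, limma with Benjamini-Hochberg adjustment over 37381 probes), a ratio of 2.45 between control and HLS. Acta2 probe A_52_P210078 fell by 1.01 ± 0.27 (adjusted p = 0.0284, limma), from 0.94 ± 0.65 to -0.07 ± 0.36 (SD, n = 5), and its groups did not overlap.

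The other Acta2 probes did not move with these. The brightest, A_51_P450957, read 8.15, 7.37, 7.99, 7.48 and 8.05 in soleus controls and 8.18, 7.92, 7.88, 7.87 and 7.50 in soleus HLS. These groups overlapped throughout, and the estimate was 0.06 ± 0.15 (adjusted p = 0.885, limma). A_52_P239556 gave -0.13 ± 0.15 (adjusted p = 0.721, limma). Which transcripts each of these probes reads was not tested.

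**Figure D2:**
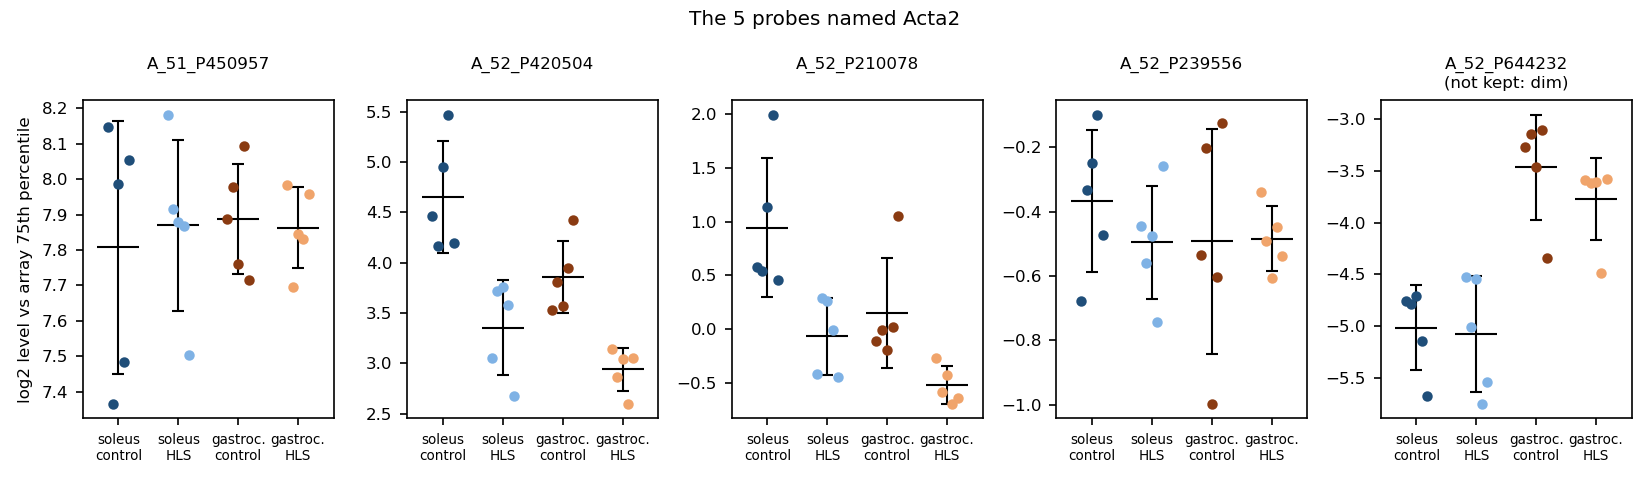
The 5 probes named Acta2, with arrays as points (y axis: log2 level against the array's 75th percentile, own range in each panel) and the mean ± SD of 5 arrays as bars. Probes A_52_P420504 and A_52_P210078 are lower in HLS in both muscles, while the bright probe A_51_P450957 stays between 7.37 and 8.18 on all arrays.

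Actg2, the gamma-actin of visceral smooth muscle, read 2.38, 1.56, 2.67, 2.49 and 2.57 in soleus controls and 3.36, 2.32, 2.20, 2.28 and 1.57 in soleus HLS. The groups overlapped, and HLS 1 was the highest of all 10. The estimate was 0.01 ± 0.34 (adjusted p = 0.993, limma), with a 95% interval of -0.69 to 0.71. Without HLS 1 the estimate was -0.24.

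Myh11, the motor of smooth muscle, read 1.50, 1.05, 2.02, 2.10 and 1.61 in soleus controls and 1.14, 1.56, 1.38, 1.42 and 1.10 in soleus HLS. The highest 3 arrays were controls, but control 2 was the lowest of all 10. The difference of -0.34 ± 0.17 did not pass (adjusted p = 0.308, limma), and its 95% interval ran from -0.69 to 0.01.

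Among the thin-filament regulators, the brighter Tagln probe A_51_P450527 read 4.48, 4.02, 4.97, 5.33 and 4.26 in soleus controls and 3.30, 3.53, 3.79, 3.62 and 2.84 in soleus HLS. No HLS array reached the lowest control. The change was -1.20 ± 0.22 (adjusted p = 0.00225, limma), a ratio of 2.29 between control and HLS. The second Tagln probe, A_52_P517683, fell by 1.27 ± 0.24 (adjusted p = 0.00237, limma), and there HLS 3 at 0.68 lay above control 2 at 0.60.

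Cnn1, which binds actin and slows the myosin cycle, read 1.26, 1.40, 2.84, 3.56 and 1.38 in soleus controls and 0.13, 1.44, 1.42, 0.65 and -0.07 in soleus HLS. Controls 3 and 4 stood far above the other controls, and HLS 2 and 3 lay above controls 1, 2 and 5. The difference was -1.37 ± 0.43 and did not pass (adjusted p = 0.0708, limma). It passed when only probes well above background on all 20 arrays were tested (adjusted p = 0.0478, limma) and with normexp background correction (adjusted p = 0.0333, limma). Smtn, smoothelin, gave 0.19 ± 0.18 with overlapping groups (adjusted p = 0.671, limma).

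Des, which links myofibrils to each other in striated muscle, ranged from 3.73 to 5.58 in soleus controls and from 4.74 to 5.39 in HLS. Controls 2 and 4 were the lowest of the 10 arrays, at 3.92 and 3.73. The estimate was 0.29 ± 0.28 (adjusted p = 0.663, limma). Mylk, the kinase of the regulatory light chain, gave -0.45 ± 0.21 for probe A_52_P145912 (adjusted p = 0.257, limma) and -0.55 ± 0.20 for A_52_P575217 (adjusted p = 0.135, limma). The latter passed without soleus control 2 (adjusted p = 0.0479, limma). The third Mylk probe, A_51_P272407, is dim, with levels from -3.33 to -1.93 in soleus, and its estimate had the opposite sign, 0.64 ± 0.22 (adjusted p = 0.106, limma).

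**Figure D3:**
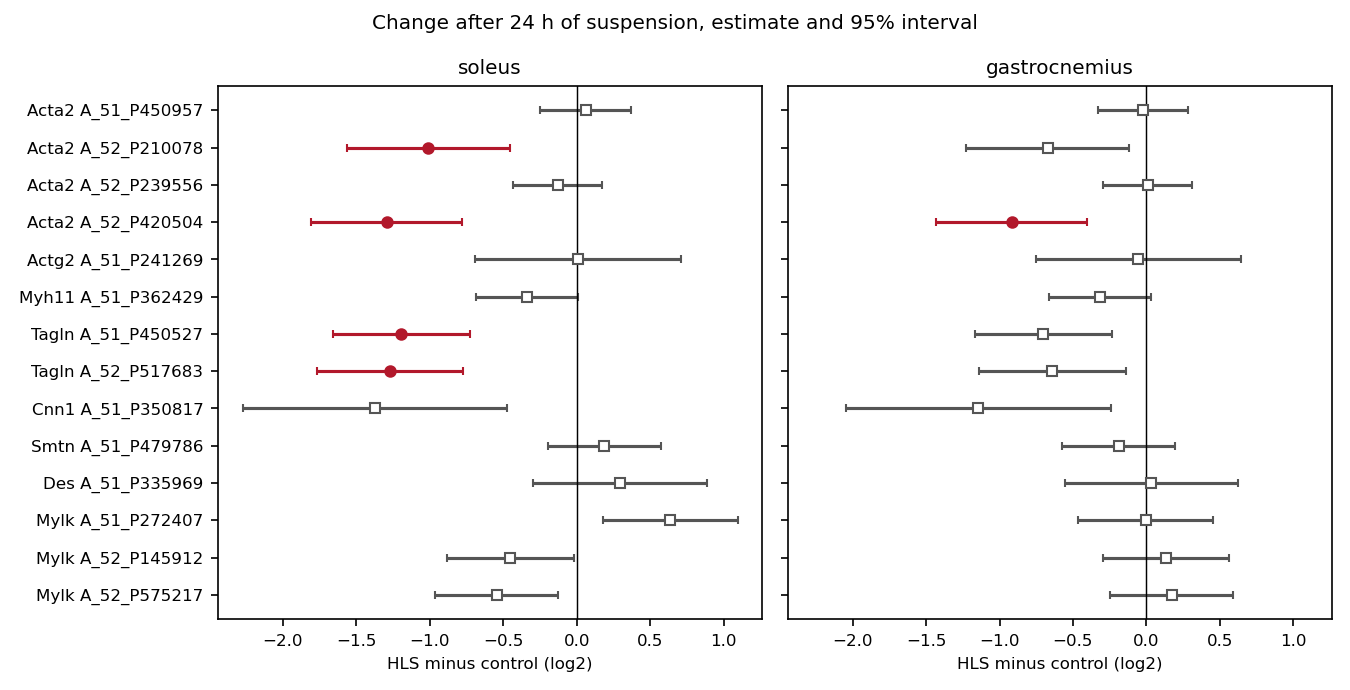
HLS minus control in soleus (left) and gastrocnemius (right) for the 14 tested probes of the 8 genes, as log2 estimates with 95% intervals (x axis). Filled red circles passed the adjusted p of 0.05 and open squares did not. In soleus 4 probes passed, all lower, and in gastrocnemius only Acta2 probe A_52_P420504 passed.

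Over all probes tested, 5.41% were called in soleus, 3.18% lower and 2.23% higher. With each array centred on its median, 478 probes were called higher and 1250 lower, against 835 and 1189. Of the 14 member probes 4 fell and 0 rose. An unadjusted p below 0.05 was found for 8 of them (limma), beside 6535 of all 37381 probes. Counted by the brightest probe of each gene, 1 of 8 genes fell (Tagln), and counted by the most-spotted RefSeq probe, 2 of 8 fell (Tagln and Acta2). The median change of the 14 probes was -0.39, beside 0.05 over all probes. HLS arrays lay wholly below controls for 3 of the 14 probes and for 2.71% of all probes.

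The calls in soleus were also set against the slides and scan days. Within slide 5, where 3 HLS arrays meet 1 control, the HLS arrays were lower by 0.72 for Tagln probe A_51_P450527 and by 0.68 for Acta2 probe A_52_P420504, on average, and neither passed once the slide was a term of the fit (adjusted p = 0.864 and 0.882, limma). The array-wide count in that fit was 23 probes, against 2024, and it was 981 in the fit with the scan day as a term. Within scan day 2, with 3 HLS arrays and 5 controls, the differences were -1.07 and -1.14, and both passed in the fit that had the scan day as a term (adjusted p = 0.0341 and 0.0394, limma). Cnn1 was -0.38 within slide 5 and -1.09 within scan day 2. With any 1 soleus array left out both calls held, with estimates from -1.34 to -1.02 for Tagln and from -1.41 to -1.09 for Acta2. Without soleus HLS 1, the array that stood apart in fibre markers, Tagln fell by 1.17 (adjusted p = 0.00651, limma) and Acta2 by 1.22 (adjusted p = 0.00836, limma). Acta2 probe A_52_P210078 lost its call in the scan-day fit (-0.90, adjusted p = 0.174, limma), in the slide fit (-0.41, adjusted p = 0.941, limma), with the soleus arrays fitted alone, with the shared number as a replicate block, without soleus control 3 or 4, and without soleus HLS 1 or 5.

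The same comparison in gastrocnemius gave smaller estimates for the same genes. Acta2 probe A_52_P420504 alone passed, at 1.89 times as high in controls as in HLS. Tagln, Cnn1 and the other responsive Acta2 probe had all 5 HLS arrays below all 5 controls and did not pass.

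Acta2 probe A_52_P420504 read 3.53, 3.81, 3.57, 3.94 and 4.42 in gastrocnemius controls and 3.14, 2.86, 3.04, 2.60 and 3.05 in gastrocnemius HLS. The groups were separate, with control 5 highest and HLS 4 lowest. It fell by 0.92 ± 0.25 (adjusted p = 0.0477, limma), close to the threshold, and no removal of 1 of the 10 gastrocnemius arrays left it passing (adjusted p = 0.0504 to 0.128, limma, estimates from -0.999 to -0.776). The difference was -0.84 within slide 2 and -0.71 within scan day 1, each with 1 HLS array, against 3 and 5 controls, and it passed in neither the slide fit nor the scan-day fit (adjusted p = 0.757 and 0.779, limma). Those fits called 18 and 65 probes in all, against 1049. Over all alternatives run, the call held in 5 of 22. Acta2 probe A_52_P210078 gave -0.67 ± 0.27 (adjusted p = 0.218, limma). The bright Acta2 probe gave -0.02 ± 0.15 (adjusted p = 0.972, limma), and A_52_P239556 gave 0.01 ± 0.15.

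Tagln probe A_51_P450527 read 3.70, 3.93, 3.72, 3.95 and 4.55 in gastrocnemius controls and 3.47, 3.07, 3.44, 3.05 and 3.31 in gastrocnemius HLS. All HLS arrays lay below all controls, and control 5 was again highest. The difference was -0.70 ± 0.22 (adjusted p = 0.105, limma), and the second probe gave -0.64 ± 0.24 (adjusted p = 0.185, limma). Tagln probe A_51_P450527 passed with normexp background correction (adjusted p = 0.0393, limma) and with the gastrocnemius arrays fitted alone (adjusted p = 0.0379, limma).

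Cnn1 read 0.51, 1.20, 0.69, 0.82 and 2.47 in gastrocnemius controls and 0.33, -0.21, 0.26, -0.34 and -0.07 in gastrocnemius HLS. The groups were separate, and control 5 stood far above the next control. The difference was -1.14 ± 0.43 (adjusted p = 0.19, limma), and -0.81 without control 5. Myh11 gave -0.31 ± 0.17 (adjusted p = 0.417, limma), with overlapping groups. Smtn gave -0.19, Des 0.03, Actg2 -0.05 and the brightest Mylk probe 0.13, with adjusted p from 0.733 to 0.979 (limma).

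Over all probes, 2.81% were called in gastrocnemius, 1.72% lower and 1.09% higher, or 407 higher and 642 lower. With median centring these were 230 and 587. Of the member probes 1 of 14 fell and 0 rose. An unadjusted p below 0.05 was found for 5 of them (limma), beside 5354 of all 37381 probes. By the brightest probe 0 of 8 genes were called (limma, 2 at an unadjusted p below 0.05), and by the most-spotted RefSeq probe 1 of 8. The median change over the 14 probes was -0.12, beside 0.01 over all probes. HLS arrays lay wholly below controls for 5 of the 14 probes, beside 4% of all probes. Against the E1A spike-in probes, all of these gastrocnemius estimates shift upward by 0.78, to 0.08 for Tagln, -0.14 for Acta2 probe A_52_P420504 and -0.37 for Cnn1, none of which passed.

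The difference between the muscles in their response was tested as an interaction. It was called for 0.0321% of all probes and for none of the 14 member probes (limma). Of the 14, 1 Mylk probe had an unadjusted p below 0.05, beside 2258 of all 37381 probes. The estimates, soleus change minus gastrocnemius change, were -0.49 ± 0.32 for Tagln probe A_51_P450527, -0.38 ± 0.35 for Acta2 probe A_52_P420504 and -0.23 ± 0.61 for Cnn1. Their 95% intervals were -1.15 to 0.16, -1.10 to 0.35 and -1.50 to 1.04. For Mylk probe A_52_P575217 the estimate was -0.72 ± 0.28 (adjusted p = 0.708, limma).

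Between the control muscles, the members split. Of the tested probes, 1 of 2 for Tagln and 2 of 4 for Acta2 were higher in soleus, and Actg2 was higher in gastrocnemius. Tagln probe A_51_P450527 was 0.64 ± 0.22 higher in soleus (adjusted p = 0.0319, limma), Acta2 probe A_52_P420504 was 0.79 ± 0.25 higher (adjusted p = 0.0178, limma) and probe A_52_P210078 was 0.79 ± 0.27 higher (adjusted p = 0.0272, limma). The groups overlapped in each case. The second Tagln probe gave 0.45 ± 0.24 (adjusted p = 0.152, limma), and the other Acta2 probes gave -0.08 ± 0.15 for A_51_P450957 and 0.13 ± 0.15 for A_52_P239556 (adjusted p = 0.713 and 0.533, limma). Gastrocnemius control 5, at 4.42 for the Acta2 probe A_52_P420504, lay above 2 of the soleus controls. Cnn1 gave 0.95 ± 0.43 (adjusted p = 0.0972, limma) and passed without gastrocnemius control 5 (1.28, adjusted p = 0.0244, limma). Tagln probe A_51_P450527 and Acta2 probe A_52_P210078 lost their calls without soleus control 3 or 4 or any 1 of gastrocnemius controls 1 to 4. They also lost them with the animal as a replicate block (adjusted p = 0.0538 and 0.0504, limma), and Acta2 probe A_52_P420504 lost its call without soleus control 4 (0.59, adjusted p = 0.0607, limma). Tagln lost its call with quantile normalization as well (0.48, adjusted p = 0.096, limma).

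Actg2 read 3.05, 4.66, 3.84, 3.87 and 2.65 in gastrocnemius controls, against 1.56 to 2.67 in soleus controls. Only gastrocnemius control 5 reached into the soleus range. Soleus was lower by 1.28 ± 0.34 (adjusted p = 0.00635, limma), a ratio of 2.43. Over all probes 33.1% differed between the control muscles, 22% lower and 11.1% higher in soleus, so that 3 higher and 1 lower of 14 member probes stand beside a large background. With median centring, 7855 probes were called higher and 5083 lower in soleus, against 4143 and 8227. Every soleus control was scanned on day 2 and every gastrocnemius control on day 1, and none of the members' differences passed in the fit with a scan-day term, in which Actg2 was -0.55 (adjusted p = 0.665, limma). Of all 37381 probes that fit called 2026, with 504 higher and 1522 lower in soleus, against 12370 without the term. Against the E1A probes the Actg2 difference was -0.23 and did not pass (adjusted p = 0.509, limma). The median difference of the 14 probes was 0.19, beside -0.08 over all probes.

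In order of the 4 groups, Tagln (A_51_P450527) and Acta2 (A_52_P420504) ran from soleus control (4.61 ± 0.53 and 4.65 ± 0.56) through gastrocnemius control (3.97 ± 0.35 and 3.86 ± 0.36) and soleus HLS (3.42 ± 0.37 and 3.36 ± 0.47) to gastrocnemius HLS (3.27 ± 0.20 and 2.94 ± 0.22) (SD, n = 5). The Tagln means of the suspended muscles differed by less than the SD of either soleus group. The second Tagln probe had them in the other order, with soleus HLS at 0.28 ± 0.40 and gastrocnemius HLS at 0.46 ± 0.18 (SD, n = 5). Cnn1 followed the same order at 2.09 ± 1.05, 1.14 ± 0.79, 0.71 ± 0.71 and -0.00 ± 0.29, where neighbouring means lay within about 1 SD of each other.

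Within the groups, some members varied together from array to array. Deviations from the group means were compared over 20 arrays between Acta2 probe A_52_P420504 and each of the 7 other genes. That is not the brightest Acta2 probe, and the choice by number of spots was added after the data had been seen. Array labels were permuted 100000 times within groups, and p was adjusted over the 7 relations. Tagln gave Pearson's r = 0.966 and Spearman's rho = 0.962, and Cnn1 gave r = 0.931 and rho = 0.914. For each of these the permutation p was 1e-05, the smallest these permutations can give (adjusted p = 3.5e-05). Myh11 gave r = 0.754 (permutation p = 0.00145, adjusted 0.00338) and rho = 0.722 (permutation p = 0.00192, adjusted 0.00448). Without the 2 arrays farthest from the median of Acta2, r was 0.946 for Tagln, 0.913 for Cnn1 and 0.688 for Myh11.

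These relations were present in each muscle for Tagln (r = 0.969 in soleus and 0.960 in gastrocnemius) and for Cnn1 (0.944 and 0.904). For Myh11 r was 0.846 in soleus and 0.489 in gastrocnemius. Within slides, over 18 arrays, they were 0.960, 0.916 and 0.790. The other 4 genes did not pass. Mylk gave r = 0.447 and rho = 0.361 (permutation p = 0.132 and 0.19), Actg2 r = 0.108 and rho = 0.114 (permutation p = 0.678 and 0.652), Smtn r = -0.207 and rho = -0.129 (permutation p = 0.492 and 0.647) and Des r = -0.314 and rho = -0.153 (permutation p = 0.35 and 0.591). Adjusted over the 7 relations these lay between 0.23 and 0.678. The brightest Acta2 probe, A_51_P450957, had other relations. It gave r = 0.09 with Tagln probe A_51_P450527, -0.18 with Cnn1 and 0.15 with Myh11. With Des it gave 0.87, with Smtn 0.71, with Actg2 0.63 and with Mylk probe A_52_P145912 0.40. The relations of that probe were not tested.

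**Figure D4:**
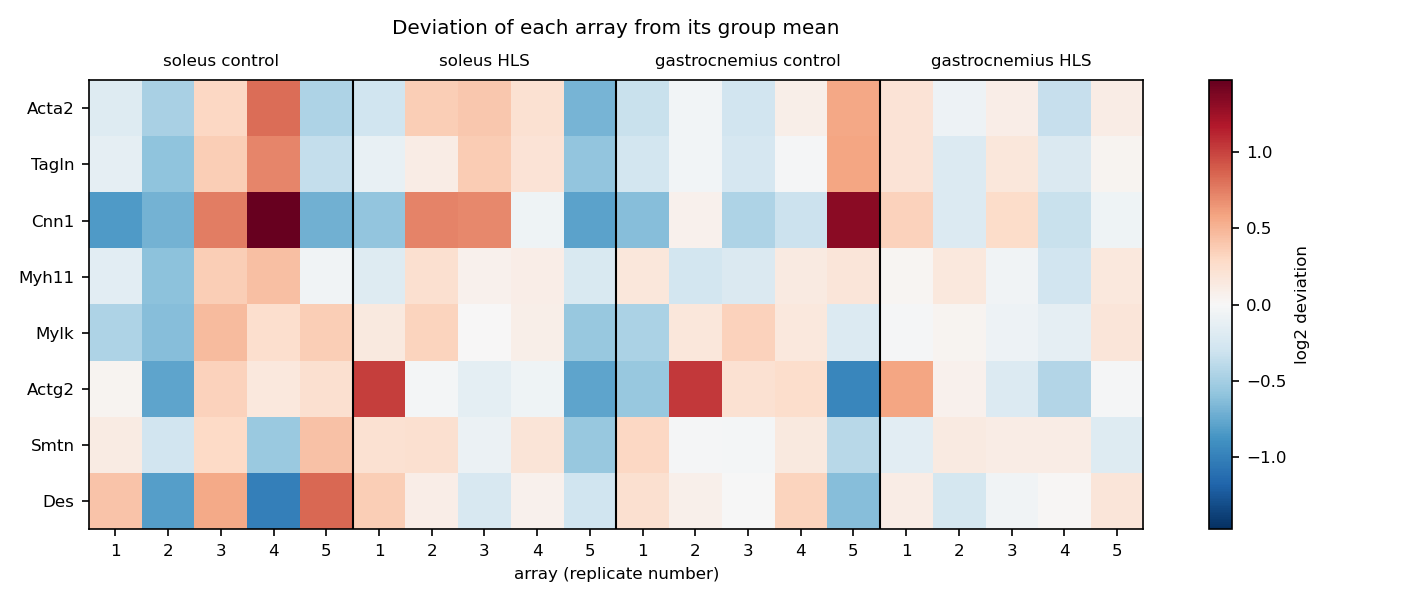
Deviation of each array (x axis, replicate numbers within the 4 groups) from its group mean in log2 (colour, red above and blue below) for the most-spotted RefSeq probe of each gene (rows). Acta2, Tagln and Cnn1 are high together on soleus control 4 and gastrocnemius control 5 and low together on soleus HLS 5, while Des is lowest on soleus control 4 and Actg2 is low on gastrocnemius control 5.

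The probes of 1 gene can be compared in the same way. Deviations of Acta2 probes A_52_P420504 and A_52_P210078 correlated at 0.92, and those of the bright probe A_51_P450957 correlated with the first at 0.01 and with the second at -0.26. The pair of Tagln probes correlated at 0.92, and the brighter pair of Mylk probes at 0.98, while the dim Mylk probe gave -0.25 with A_52_P145912 and -0.20 with A_52_P575217. These are descriptions over 20 arrays.

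The genes most like the mean of Tagln, Acta2, Myh11 and Cnn1 in these deviations, with the brightest probe of each, were Myl9 (r = 0.905), Cpxm1 (0.852), Tifa (0.851), Pygl (0.833) and Serpina3m (0.833). With the most-spotted RefSeq probes Myl9 (0.922), Tifa (0.886) and Cpxm1 (0.88) again came first. Of these 5 genes only Myl9 passed a test of HLS. Myl9 read 5.31, 5.06, 5.60, 5.97 and 5.05 in soleus controls and 4.24, 4.61, 4.74, 4.64 and 3.88 in soleus HLS, with no overlap. It fell by 0.98 ± 0.19 in soleus (adjusted p = 0.00274, limma) and by 0.72 ± 0.19 in gastrocnemius (adjusted p = 0.0408, limma), where HLS arrays also lay wholly below controls. Tifa, in contrast, gave 0.04 and 0.06, and Cpxm1 gave 0.13 and 0.22, neither of which passed.

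Actg2 followed another actin gene. Its deviations correlated with those of Actc1, cardiac alpha-actin, at r = 0.962 and rho = 0.951 over the 19 arrays on which the Actc1 probe gave a value, a pair that was picked after the values were seen. Both were high on gastrocnemius control 2 and on soleus HLS 1 and low on gastrocnemius control 5. Genes that are not actins also followed Actg2, first Ywhag (r = 0.910) and Ywhae (0.910) over 20 arrays. Actc1 was 2.04 ± 0.62 lower in soleus than in gastrocnemius controls (adjusted p = 0.0159, limma), with gastrocnemius control 3 missing from that fit. The bright Acta2 probe correlated with Acta1, skeletal alpha-actin, at 0.429, with Actc1 at 0.503 and with the pair of Actb probes, for beta-actin, at 0.389 and -0.61. It followed probes of other genes more closely, first TC1459687 (0.978), a name kept from the file, and Fitm1 (0.952). Actins share most of their coding sequence, and whether these probes read more than 1 actin was not tested.

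**Figure D5:**
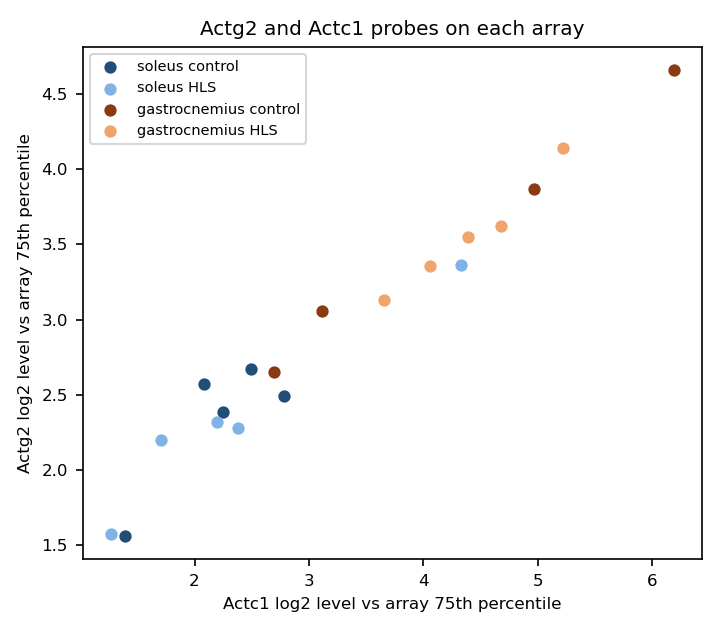
Level of the Actg2 probe (y axis) against that of the Actc1 probe (x axis), both log2 against the array's 75th percentile, for the 19 arrays with an Actc1 value. Gastrocnemius arrays lie up and to the right of most soleus arrays, and soleus HLS 1 (Actc1 4.33, Actg2 3.36) lies among them.

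The other contractile and cytoskeletal genes of smooth muscle form a list of 30, of which 29 were tested. In soleus 9 fell and 0 rose, beside 3.18% lower and 2.23% higher over all probes. The list median was -0.25, beside 0.05 over all probes. Tpm4, a non-muscle tropomyosin, fell most, by 1.31 ± 0.15 (adjusted p = 1.98e-05, limma). Prkg1, the kinase through which nitric oxide relaxes smooth muscle, fell by 1.26 ± 0.22 (adjusted p = 0.00148, limma). Synpo2, Flna, Myl9, Nexn, Myl6 and Csrp1 fell by 0.72 to 1.13. Some of these, such as Nexn and Synpo2, are also made by striated muscle. The count lay between 8 and 11 with any 1 soleus array left out, and was 8 with a scan-day term and 0 with a slide term (limma). Against the E1A probes it was 16, beside 4406 of all 37381 probes called lower.

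In gastrocnemius 5 of 29 fell and 0 rose, beside 1.72% lower and 1.09% higher over all probes. The list median was -0.13, beside 0.01 over all probes. The 5 were Tpm4 (-1.36 ± 0.15, adjusted p = 3.66e-05, limma), Flna, the actin crosslinker filamin A (-0.99 ± 0.20, adjusted p = 0.00699, limma), and, added after the values were seen, Synpo2 (-0.89), Myl9 (-0.72) and Myl6 (-0.54). Each of the 5 also fell in soleus. The count was 3 without control 2, 3, 4 or 5 or without HLS 2, 4 or 5, 3 with median centring, 1 with a scan-day term and 0 with a slide term (limma). Against the E1A probes 1 of the 29 fell and 19 rose, beside 48 and 34736 of all 37381 probes. Between the control muscles 11 of 29 were higher and 2 lower in soleus, beside 33.1% called over all probes. With a scan-day term these were 4 and 0, beside 504 higher and 1522 lower of all 37381 probes. Ednra, an endothelin receptor, was 1.09 ± 0.18 higher, while Synm was 1.09 ± 0.17 lower and Vcl 0.50 ± 0.17 lower (adjusted p from 8.43e-05 to 0.03, limma). The count of lower genes was 1 without soleus control 1 or 2 or gastrocnemius control 2, 3 or 4.

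Of 26 SRF and myocardin regulators 25 were tested. In soleus 3 fell and 0 rose, beside 3.18% lower and 2.23% higher over all probes. The list median was -0.36, beside 0.05 over all probes. Myocd, the coactivator myocardin, fell by 0.67 ± 0.16 (adjusted p = 0.0167, limma). It read -1.31, -1.23, -1.23, -0.97 and -1.56 in soleus controls and -2.09, -1.32, -1.99, -2.28 and -1.98 in soleus HLS, so that HLS 2 lay within the controls. Rhoa, the small GTPase that drives actin assembly, fell by 0.53 ± 0.15 (adjusted p = 0.0484, limma), and Elk3, an SRF partner, fell by 0.52 ± 0.15 (adjusted p = 0.0442, limma, named after its value was seen). The count was 1 without soleus control 4, HLS 1 or HLS 5, 5 without soleus control 2 and 1 with quantile normalization. Against the E1A probes it was 13, beside 4406 of all 37381 probes called lower. A gene also rose without soleus control 1 or 5 or HLS 5, or with quantile normalization.

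In gastrocnemius 3 of 25 regulators fell and 0 rose, beside 1.72% lower and 1.09% higher over all probes. The list median was -0.03, beside 0.01 over all probes. Mrtfa, a myocardin-related factor, fell by 0.80 ± 0.17 (adjusted p = 0.0112, limma), Heyl, a Notch target, by 0.66 ± 0.17 (adjusted p = 0.0398, limma), and Elk3 by 0.60 ± 0.15 (adjusted p = 0.0311, limma). Myocd gave -0.06 ± 0.16 there, and the difference between the muscles in its change was -0.61 ± 0.23 (adjusted p = 0.673, limma). The count was 1 without control 2, 4 or 5 or without HLS 2, 3, 4 or 5. Srf itself gave -0.36 ± 0.14 in soleus and -0.44 ± 0.14 in gastrocnemius and passed in neither (adjusted p = 0.148 and 0.091, limma). Against the E1A probes 21 regulators rose and 0 fell in gastrocnemius, beside 34736 and 48 of all 37381 probes. In the fits with a slide term or a scan-day term, none of the 25 regulators was called in either muscle (limma). Between control muscles 11 of 25 were higher and 3 lower in soleus, beside 11.1% higher and 22% lower over all probes. With a scan-day term these were 3 and 0, beside 504 higher and 1522 lower of all 37381 probes. Fhl2 (2.25 ± 0.30) and Rhoa (1.20 ± 0.15) led the regulators, with Elk4 (-0.76 ± 0.15) and Klf5 (-0.44 ± 0.15) the lowest. The count of lower genes was 1 without gastrocnemius control 2 and with median centring.

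Paralogs of the members that other cells use were also counted. Of 15 tested, 4 fell and 1 rose in soleus (median -0.32), beside 3.18% lower and 2.23% higher over all probes. Myh10, a non-muscle myosin heavy chain, fell by 2.01 ± 0.15 (adjusted p = 1.33e-07, limma), Nes, the intermediate filament nestin, by 0.89 ± 0.12 (adjusted p = 1.27e-04, limma), and Cnn2 and Cnn3, the other calponins, by 0.82 and 0.61. Mylk2, the skeletal muscle light chain kinase, rose by 0.95 ± 0.20 (adjusted p = 0.00534, limma). The count of genes that rose was 2 without soleus control 5 or HLS 5 and with a scan-day term, and with a slide term 1 fell and 0 rose. In gastrocnemius 5 fell and 0 rose (median -0.37), beside 1.72% lower and 1.09% higher over all probes. The 5 that fell were Myh10 (by 1.37 ± 0.15), Nes (0.94 ± 0.12), Cnn2 (0.79), Tagln2 (0.61) and Cnn3 (0.48). That count was 3 without control 2, 3 or 4 or HLS 1 or 4, 2 with a scan-day term and 0 with a slide term (limma). Against the E1A probes 1 fell and 6 rose, beside 48 and 34736 of all 37381 probes. Between control muscles 6 of 15 were higher and 4 lower in soleus, beside 33.1% over all probes, from Myh9 (1.05 ± 0.15) and Smtnl1 (0.96 ± 0.24) to Smtnl2 (-1.51 ± 0.29) and Actc1. With a scan-day term 1 was higher and 0 lower, beside 504 and 1522 of all 37381 probes.

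Markers of neighbouring cell types are given beside the members, and their part in the members' changes was not tested. Over all probes 3.18% were called lower in soleus and 1.72% in gastrocnemius. Of 9 tested pericyte markers 2 fell and 0 rose in soleus, Cspg4 by 0.60 ± 0.11 (adjusted p = 0.00175, limma) and Higd1b by 0.55 ± 0.12 (adjusted p = 0.00614, limma). In gastrocnemius 0 of 9 passed (limma, 4 at an unadjusted p below 0.05, beside 5354 of all 37381 probes). Cspg4 gave -0.40 ± 0.11 there (adjusted p = 0.0523, limma) and Higd1b -0.38 ± 0.12 (adjusted p = 0.0838, limma). The log2 of the summed level of the pericyte markers ranged from 5.61 to 6.26 in soleus controls and 5.45 to 6.10 in soleus HLS. In gastrocnemius it ranged from 5.22 to 5.84 in controls and 5.11 to 5.44 in HLS. The ranges of HLS and control overlapped in each muscle, and 9 of the 10 listed pericyte markers were matched to a tested probe.

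The next counts stand beside the same shares of all probes called lower, 3.18% in soleus and 1.72% in gastrocnemius. Of 18 endothelial markers 2 fell in soleus, Plvap (-0.83 ± 0.22) and Flt1 (-0.61 ± 0.13), and 1 in gastrocnemius, Kdr (-1.12 ± 0.27), with 0 higher in either. Their summed level ranged from 6.61 to 6.87 in soleus controls, 6.58 to 6.74 in soleus HLS, 6.21 to 6.40 in gastrocnemius controls and 6.04 to 6.45 in gastrocnemius HLS. The soleus count was 1 without control 1, 3, 4 or 5 or HLS 5, and the gastrocnemius count was 0 without control 2, 3 or 4 or HLS 3, 4 or 5. Of 12 fibroblast markers 4 fell in soleus, Postn (-1.08 ± 0.24), Mfap5 (-0.99 ± 0.18), Fbn1 (-0.93 ± 0.19) and Thy1 (-0.84 ± 0.23), and 2 in gastrocnemius, Thy1 (-0.87 ± 0.23) and Fbn1 (-0.78 ± 0.19). The gastrocnemius count was 0 or 1 without any 1 of the 10 arrays. The summed level of fibroblast markers ranged from 9.34 to 9.72 in soleus controls, 8.94 to 9.71 in soleus HLS, 9.08 to 9.32 in gastrocnemius controls and 9.06 to 9.35 in gastrocnemius HLS. The mean of their log2 levels ranged from 3.37 to 3.70 in gastrocnemius controls and 3.14 to 3.35 in gastrocnemius HLS, without overlap. In soleus these means overlapped, at 3.54 to 4.23 in controls and 2.96 to 3.80 in HLS. The median change of the fibroblast list was -0.24 in soleus and -0.28 in gastrocnemius. Means of the pericyte and endothelial lists overlapped between HLS and control in each muscle. Of 7 tendon markers Scx, a transcription factor of tendon cells, fell in soleus (-0.78 ± 0.16) and in gastrocnemius (-0.75 ± 0.16). With a slide term none of the pericyte, endothelial, fibroblast or tendon markers passed in either muscle (limma). With a scan-day term none passed in gastrocnemius, and in soleus 2 pericyte, 1 endothelial and 2 fibroblast markers fell and 1 endothelial marker rose.

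No fibre marker passed in either HLS comparison, 0 of 7 slow and 0 of 8 fast (limma). In soleus 1 slow and 2 fast markers had an unadjusted p below 0.05 (limma), beside 6535 of all 37381 probes. In gastrocnemius 0 of either did, beside 5354 of all probes. Against the E1A probes, the gastrocnemius comparison called 5 slow and 5 fast markers higher, 8 of 9 pericyte markers higher and 16 of 18 endothelial markers higher. Of all 37381 probes, that scaling called 34736 higher there. The lowest p in soleus among slow markers were those of Myl2 (-0.85 ± 0.37, adjusted p = 0.232, limma) and Atp2a2 (-0.61 ± 0.38, adjusted p = 0.443, limma). Among fast markers they were those of Myh1 (0.37 ± 0.16, adjusted p = 0.212, limma) and Atp2a1 (0.68 ± 0.29, adjusted p = 0.22, limma). In gastrocnemius those with the lowest p were Tnnt1 (0.45), Myl2 (-0.42), Mylpf (0.09) and Actn3 (0.29).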

How the data were processed

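Total RNA (600 ng per labelling, with spike-in RNA, per the labels' protocols) was hybridised to one-colour Agilent arrays. The authors' deposited files give the intensity of each spot, unlogged, as written by Agilent Feature Extraction (version 9.1.3.1 per the file headers). The deposited series table held the same intensity to within 0.497% and served as an alternative.

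Uneven spots (3 to 43 per array) were left out. The intensity was divided by the array's 75th percentile over non-control spots (385.5 to 736.1 before scaling), taken to log2 and averaged over the spots of a probe. Probes had to be well above background on 4 or more arrays of some group of 5. A means model of the 4 groups was fitted over all 20 arrays with limma 3.58.1 in R 4.3.3, two-sided, with Benjamini-Hochberg adjustment over 37381 probes and a threshold of 0.05. The script was tested on simulated data.

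Symbols came from RefSeq: 22951 probes by accession, 6659 by current symbol, 3109 by older symbol, and 8455 kept the file's name. A gene was counted by its brightest kept probe. Named genes outside the members were, per list and contrast, up to 2 passing genes at each end, or 2 with the lowest p, and the 5 genes most like Tagln, Acta2, Myh11 and Cnn1. Named beyond it, after their values were seen, were Srf, Elk3, Synpo2, Nexn, Myl6, Csrp1, Cnn2, Cnn3 and Tagln2, and in soleus Flna, Fbn1 and Thy1. A gene that the counts include and the rule names is not reported here. The members and lists were chosen with earlier results of these data known. The count by the most-spotted RefSeq probe and the scaling to E1A probes were added after the data had been seen. Alternatives were other scalings, background correction, filters, slide and scan day as terms, a replicate block, and leaving out each array.

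Both muscles of 1 number within a condition came from 1 mouse, per the labels, so that the mouse was the block for comparisons between muscles. Deviations of the muscles of a mouse correlated at -0.340 to 0.165 over 10 mice. Control and HLS mice of 1 number were different animals.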

Additional observations from a re-analysis of the deposited data

Results flagged for a closer look

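In 260 groups of 4 or 5 arrays (probes of the members and of the other named genes), a single array stood far from the others in 21 cases by Dixon's ratio, and chance gives about 5% of groups. Values are log2 levels, with the range of the other arrays of the group.

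Among the members, Acta2 probe A_52_P210078 read 1.05 on gastrocnemius control 5, with the others between -0.20 and 0.01. Actg2 read 1.56 on soleus control 2, with the others between 2.38 and 2.67.

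Gastrocnemius control 5 was also highest for Myocd (-0.88, others -1.32 to -1.21) and Tifa (-1.58, others -2.40 to -2.30) and lowest for Atp2a1 (7.09, others 7.71 to 7.89). Gastrocnemius control 3 was highest for Fbn1 (2.20, others 1.85 to 1.92) and Postn (2.96, others 2.58 to 2.64), and control 1 was lowest for Thy1 (1.99, others 2.78 to 3.06). In gastrocnemius HLS, Myocd read -0.76 on array 2 (others -1.42 to -1.33), Smtnl1 1.55 on array 2 (others 2.55 to 2.69), Thy1 2.26 on array 4 (others 1.65 to 1.82), Cpxm1 0.88 on array 5 (others 1.12 to 1.17), and on array 1 Serpina3m read -0.90 (others -1.36 to -1.25) and Prkg1 -0.95 (others -0.37 to -0.31).

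In soleus controls, Plvap read 1.00 on array 2 (others 1.76 to 2.03) and Fbn1 2.85 on array 4 (others 1.88 to 2.16). Soleus HLS 1 was highest for Atp2a1 (7.90, others 6.10 to 6.61) and lowest for Smtnl1 (2.47, others 3.65 to 3.90), Atp2a2 (3.49, others 5.78 to 6.24) and Tnnt1 (6.70, others 8.35 to 8.75). Nexn read 4.34 on soleus HLS 5 (others 4.94 to 5.12).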

How the results depend on the processing

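By the brightest probe, 1 of 8 genes was called in soleus, 0 in gastrocnemius, 0 in the interaction and 2 between the control muscles. The soleus count was 2 with normexp background correction, with probes well above background on all 20 arrays and with the most-spotted RefSeq probe, and 0 with slide as a fixed block. The gastrocnemius count was 1 with normexp, with its own arrays alone and with the most-spotted RefSeq probe. The count between control muscles was 1 with the control arrays alone, 0 with scan day as a block and 1 with the animal as a replicate block (Actg2), and 1 to 3 with 1 array left out. With 1 array left out the soleus count stayed at 1 and the gastrocnemius and interaction counts at 0. The replicate block by shared number left the soleus count at 1 and the gastrocnemius count at 0, but lowered the calls over all probes from 2024 to 545 and from 1049 to 535. The gastrocnemius call of Acta2 probe A_52_P420504 was lost under that block (adjusted p = 0.0542, limma), as it was with quantile normalization (0.0541), median centring (0.0612) and no filter (0.0604). Control and HLS mice share only numbers, so this block pairs no animals. The muscle comparison with slide as a fixed block could not be fitted.

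Scaling to E1A probes called 4 genes in soleus, all lower, beside 4406 lower and 210 higher of all 37381 probes. In gastrocnemius it called 6 genes, all higher, beside 34784 of all probes, of which 34736 were higher. In the interaction it called 6 genes, all lower, beside 34316 of all probes lower and 0 higher. Between control muscles it called 7 genes, all higher in soleus, beside 32924 of all probes higher and 172 lower. Except in soleus, most of all probes were thus called in the same direction as these genes. With that scaling, direction turned in gastrocnemius for Actg2 (0.72), the dim Mylk probe (0.77), Myh11 (0.46), the bright Acta2 probe (0.75) and Smtn (0.59). In the interaction it turned for Actg2 (-0.97), the bright Acta2 probe (-0.95) and Smtn (-0.66), and between control muscles for the dim Mylk probe (0.98), Des (0.80), the bright Acta2 probe (0.97) and Smtn (0.73). No other alternative turned a passing value.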
